A study of Homo sapiens with 16 samples.

Results

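The E2F, RB and mitotic transcription regulators described here are 10 genes: E2F1, E2F2, E2F3, E2F7, TFDP1, RB1, RBL1, LIN9, MYBL2 and FOXM1. They were taken by gene name from the deposited tables, in which each has 1 row, and they are 10 of the 58721 genes listed. RNA was read from the 3' ends of transcripts in 16 libraries of RT112 and SCaBER, established human bladder cancer cell lines of the luminal and the basal type. RT112 was grown in RPMI and SCaBER in DMEM, both with 10% FBS, so that line and medium cannot be told apart. All 16 libraries came from cells given Lipofectamine RNAiMAX and, per the labels, 10 nM of siRNA. Each line received siControl.1, siControl.2, siFOXA1.1 and siFOXA1.2, the last pair directed at FOXA1, a forkhead transcription factor of luminal urothelium. Each siRNA has 2 libraries in each line, numbered 1 and 2 by experiment batch. The labels do not say whether these were separate cultures, so the p-values below measure the spread between libraries, which may be technical.

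E2F transcription factors bind DNA as a pair with a DP protein, of which TFDP1 encodes a main form, and switch on genes for DNA replication. RB1 and the related RBL1 product p107 hold E2F factors in check until cyclin-dependent kinases (CDKs) phosphorylate them, and loss of this brake is common in bladder cancer. Later in the cycle the MuvB complex, of which LIN9 is a core subunit, works with B-MYB (MYBL2) and then FOXM1 to switch on the genes of mitosis. E2F1, MYBL2 and FOXM1 are themselves cell cycle genes whose RNA is higher in dividing cells. In bulk RNA, fewer cells in a cycle phase and less RNA per cell cannot be told apart.

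The promoters of 6 of the regulators are shown with matches to the E2F motif, a site through which these genes can regulate each other. Exact matches were found in some and not in others that moved with them. Each is the run of 130 bases before the start site in RefSeq (GRCh38.p14), written 5′ to 3′ on the strand of the gene, with matches to the E2F motif in capitals. The motif was searched on both strands as TTTCGCGC, TTTGGCGC, TTTCCCGC or TTTGCCGC, and no matches overlapped in these genes. Only these exact letters counted, so a close variant is not marked, such as gcgggaga in the MYBL2 window, where GCGGGAAA would match. The windows lie at chr20:33686386-33686515 (E2F1, minus strand), chr20:37095998-37096127 (RBL1, minus), chr13:113584623-113584752 (TFDP1, plus), chr1:23531234-23531363 (E2F2, minus), chr6:20401749-20401878 (E2F3, plus) and chr20:43666984-43667113 (MYBL2, plus).
E2F1: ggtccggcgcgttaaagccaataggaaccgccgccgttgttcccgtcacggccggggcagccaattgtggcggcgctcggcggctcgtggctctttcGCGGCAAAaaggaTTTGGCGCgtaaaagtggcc
RBL1: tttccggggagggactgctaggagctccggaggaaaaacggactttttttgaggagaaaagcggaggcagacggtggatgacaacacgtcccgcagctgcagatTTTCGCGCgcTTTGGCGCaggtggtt
TFDP1: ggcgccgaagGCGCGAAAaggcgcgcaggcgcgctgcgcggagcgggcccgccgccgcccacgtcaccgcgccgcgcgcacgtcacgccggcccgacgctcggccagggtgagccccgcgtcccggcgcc
E2F2: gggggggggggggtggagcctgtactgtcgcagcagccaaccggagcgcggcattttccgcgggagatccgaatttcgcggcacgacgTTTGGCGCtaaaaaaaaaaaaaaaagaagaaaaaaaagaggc
E2F3: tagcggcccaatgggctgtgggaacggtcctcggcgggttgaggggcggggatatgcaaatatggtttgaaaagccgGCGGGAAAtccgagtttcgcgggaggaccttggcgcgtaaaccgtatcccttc
MYBL2: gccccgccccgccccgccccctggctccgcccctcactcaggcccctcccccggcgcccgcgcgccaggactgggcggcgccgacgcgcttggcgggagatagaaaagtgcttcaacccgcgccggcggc

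In windows of 300 bases, 250 before and 50 after the start site, 5 of the 8 regulators with a window at their start held the E2F motif (E2F1, E2F2, E2F3, RBL1 and TFDP1), against 3.31% of 35116 RefSeq promoter windows. E2F1 and RBL1 each held it at 2 places. E2F3 had 2 windows and LIN9 had 3. A regulator was counted if any of its windows matched, while the percentages are of single windows. MYBL2, E2F7 and LIN9 held none, which says only that these letters were not in their windows. The CHR element of mitotic genes (TTTGAA or TTCGAA) was found in 2 of 8 (E2F3 and LIN9), against 16.4% of windows, and the CCAAT box in 3 of 8 (E2F1, E2F3 and E2F7), against 34.6%. A forkhead motif (TGTTTAC or TGTTTGC), the kind of letters FOXA1 and FOXM1 bind, was found in 0 of 8, against 7.17%. FOXM1 and RB1 had no window at their start among the sequences used. These matches are descriptions of letters, not of bound sites.

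Library totals were 6622473 to 7604581 counts in RT112 and 4528513 to 6914951 in SCaBER, and a count of 3, taken as the detection floor, equals 0.394 to 0.662 CPM (counts scaled to a common library total). FOXA1 was at 27.8 ± 6.98 CPM in RT112 siControl (SD, n = 4), 2.28 ± 1.36 under siFOXA1.1 and 12.6 ± 4.81 under siFOXA1.2 (SD, n = 2 each), and the 3 ranges did not overlap. By edgeR its log2 change was -3.44 ± 0.47 (SE, adjusted p = 2.19e-05) under siFOXA1.1 and -1.10 ± 0.39 under siFOXA1.2, which did not pass (adjusted p = 0.205). In SCaBER it was low, with at most 15 counts in a siControl library and 1.39 ± 0.971 CPM on average (SD, n = 4), so its change there could not be measured with any precision. Under siControl, 7 of 7 luminal markers tested were higher in RT112 and 6 of 8 basal markers were lower, while KRT16, named after its value was seen, was higher and 1 did not pass. Of all 12309 genes tested between the lines, 43.4% passed in either direction. The luminal gene GRHL3 had at most 8 counts in an RT112 siControl library, and the basal gene DSG3 had 0 in all 4. Mitochondrial genes took 25.7% to 28.2% of the counts under siFOXA1.1 in RT112 and 17.99% to 21.2% in the other RT112 libraries. In SCaBER the share was 11.9% under siFOXA1.1 and 10.3% to 12.1% elsewhere.

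The order of the regulators under siControl is given in TPM, the deposited values scaled by gene length. Since the kit reads transcript ends, a length correction may misstate levels between genes. MYBL2 was the most abundant in both lines, at 180.5 ± 11.6 TPM in RT112 and 334 ± 54.4 TPM in SCaBER (SD, n = 4 each). In RT112 it was followed by TFDP1 (57.6 ± 7.82 TPM), E2F1 (42.4 ± 9.28), FOXM1 (30.6 ± 9.30) and E2F3 (30.6 ± 6.15), then by RBL1 (12.4 ± 1.54), RB1 (10.3 ± 2.81), E2F7 (6.56 ± 2.52), E2F2 (4.70 ± 1.61) and LIN9 (2.56 ± 1.13). Of the 9 neighbouring pairs in that order, 7 overlapped between libraries, and only MYBL2 with TFDP1 and E2F3 with RBL1 did not. In SCaBER the order after MYBL2 was E2F1 (89.9 ± 19.8 TPM), FOXM1 (78.3 ± 8.02), TFDP1 (58.6 ± 10.3), E2F3 (30.8 ± 4.75), RBL1 (24.4 ± 3.81), RB1 (12.0 ± 4.00), E2F7 (11.0 ± 2.30), LIN9 (4.74 ± 1.42) and E2F2 (2.11 ± 1.01). There, 4 of the 9 neighbouring pairs overlapped: E2F1 with FOXM1, FOXM1 with TFDP1, E2F3 with RBL1, and RB1 with E2F7.

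**Figure D1:**
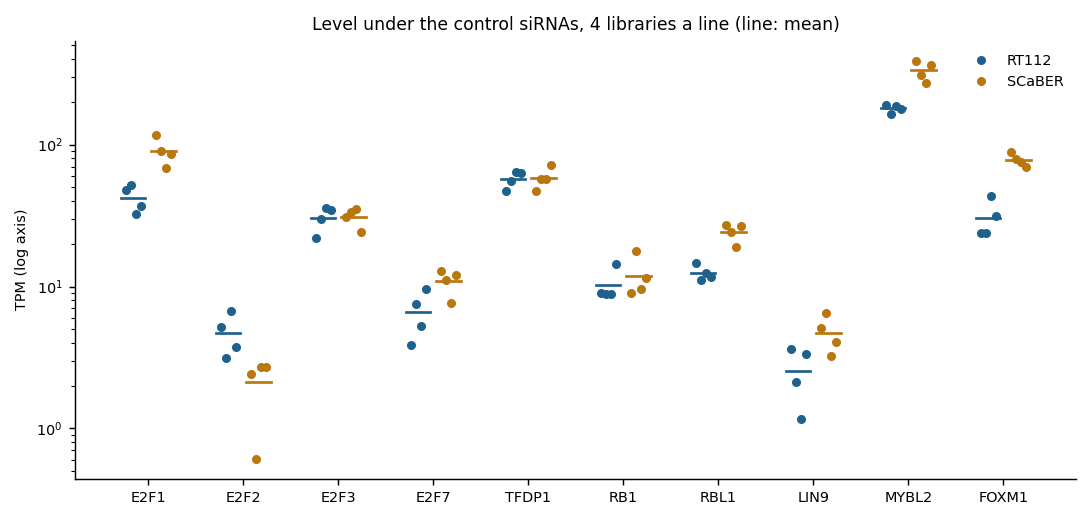
Level of each regulator under the control siRNAs in TPM on a log axis, with 1 point for each of the 4 siControl libraries of a line and a bar at their mean. MYBL2 lies highest in both lines, E2F2 and LIN9 lie lowest, and the E2F3 and TFDP1 points of the lines overlap.

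Whether the lines start from different levels of these regulators was tested on counts in the 8 siControl libraries. FOXM1, E2F1, RBL1 and MYBL2 were higher in SCaBER, and E2F2 was higher in RT112. In all, 5 of the 10 passed, against 43.4% of the 12309 genes tested, so their share was close to that of genes at large. FOXM1 differed most surely, by a log2 difference (RT112 minus SCaBER) of -0.97 ± 0.18 (SE, adjusted p = 0.000462). MYBL2 was at -0.49 ± 0.14 (adjusted p = 0.0106), E2F1 at -0.67 ± 0.22 (adjusted p = 0.0217) and RBL1 at -0.57 ± 0.19 (adjusted p = 0.0263). E2F2 was at 1.53 ± 0.48 (adjusted p = 0.0173). RB1, which encodes the pocket protein itself, showed 0.19 with a 95% interval of -0.35 to 0.72, and E2F7, LIN9, E2F3 and TFDP1 did not pass. The count fell to 3 without SCaBER siControl.1 replicate 1 or RT112 siControl.2 replicate 2 and to 2 without RT112 siControl.2 replicate 1. RBL1 lost its call in 5 of the 8 fits that left out 1 library (adjusted p = 0.0585 to 0.0759), E2F1 in 3 (0.0666 to 0.0852) and E2F2 in 1 (0.0612) and in limma on log2(TPM + 0.1) (0.0632), while FOXM1 and MYBL2 passed in all 8. On the TPM scale the median of all genes was shifted by -0.32, with RB1, E2F3 and TFDP1 changing sign.

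Under siFOXA1.1 several of the regulators fell in both lines. In RT112 MYBL2, FOXM1, E2F7, TFDP1, E2F1 and RBL1 fell, by 2.44-fold (RBL1) to 10.8-fold (MYBL2). In SCaBER MYBL2, TFDP1, FOXM1 and E2F1 fell, by 2.42-fold (E2F1) to 3.22-fold (MYBL2). RB1, E2F2, E2F3 and LIN9 passed the test in neither line. Counted over the set, 6 of 10 passed in RT112, against 32.6% of 11986 genes in either direction. All 6 were lower, against 17.0% of genes called lower. In SCaBER 4 of 10 passed, against 9.26% of 11902 genes, all 4 lower, against 4.79%. The regulators were chosen with earlier results of these data known. Here and below, their counts beside the share of all genes are therefore descriptions. The median log2 change of the 10 was -1.88 in RT112 and -0.99 in SCaBER, beside medians over all genes of -0.01 and 0.01. The mitochondrial share given above, whose part in the fall was not tested, was also higher in the RT112 siFOXA1.1 libraries. With the mitochondrial genes left out, which bears only on their weight in the scaling, the count in RT112 was again 6. Luminal markers also fell there, 5 of 7 tested, among them FOXA1, UPK2 (-1.08 ± 0.19) and GATA3 (-0.82 ± 0.11), with a summed level of 2703 to 3407 CPM in siControl and 1802 to 1967 CPM under siFOXA1.1. Of 7 basal markers tested in RT112, 2 fell, DSC3 (-1.90 ± 0.35) among them, and KRT5 rose (0.79 ± 0.20), and DSG3 stayed at 0. In SCaBER 2 of 6 luminal markers fell (ELF3 and KRT18) and 1 of 8 basal markers rose (DSG3). The summed luminal level there was 1161 to 1475 CPM in siControl and 797 to 835 CPM under siFOXA1.1, and the summed basal level 1869 to 3371 CPM and 2554 to 2994 CPM. The part of these markers in the fall of the regulators was not tested.

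**Figure D2:**
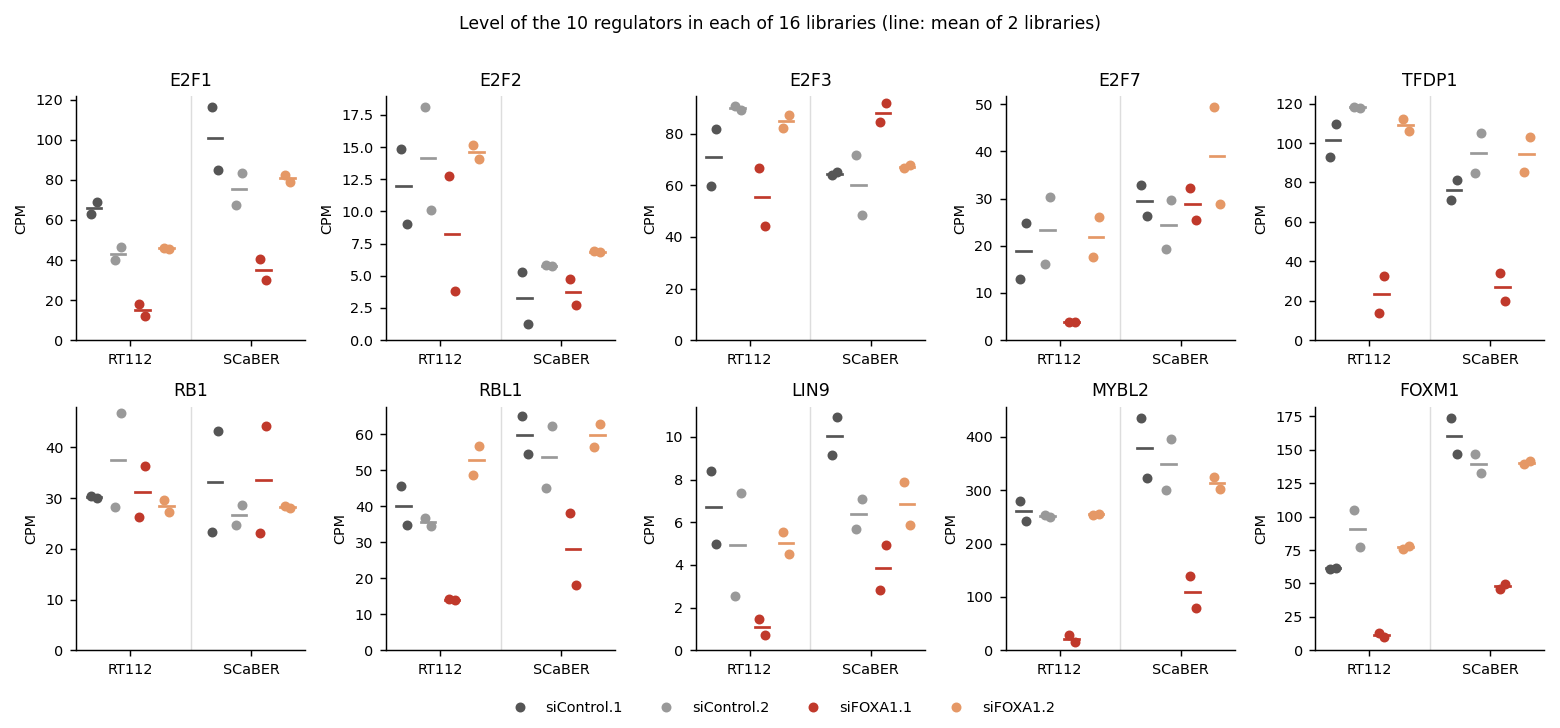
CPM of each regulator in each of the 16 libraries, with 1 panel a gene on its own axis from 0, points coloured by siRNA and bars at the mean of 2 libraries. The siFOXA1.1 points of E2F1, TFDP1, RBL1, LIN9, MYBL2 and FOXM1 lie below all 4 siControl points in both lines, those of E2F7 do so in RT112, and those of RB1 and E2F2 overlap them. Those of E2F3 overlap them in RT112 and lie above them in SCaBER. How many of all genes separate in this way was not counted.

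MYBL2, the B-MYB factor that MuvB joins in late S phase, showed the largest change of the set. Its RT112 siControl libraries were at 279 and 241 CPM (siControl.1) and 254 and 249 CPM (siControl.2). The siFOXA1.1 libraries were at 28.0 and 15.5 CPM and the siFOXA1.2 libraries at 254 and 255 CPM. The siFOXA1.1 libraries were thus at 8.49% of the control mean, while the siFOXA1.2 libraries lay among the controls. The log2 change under siFOXA1.1 was -3.43 ± 0.19 (SE, adjusted p = 5.02e-10), at -3.13 within batch 1 and -3.80 within batch 2. In SCaBER the controls read 435, 322, 299.9 and 396 CPM, siFOXA1.1 139 and 80.0 CPM, and siFOXA1.2 325 and 303 CPM. The siFOXA1.1 values were again below every other library of the line, with a log2 change of -1.69 ± 0.25 (SE, adjusted p = 0.000825) and within-batch values of -1.31 and -2.15.

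FOXM1, the forkhead factor that follows B-MYB in G2 and mitosis, fell in both lines. In RT112 its siControl.1 libraries were at 61.02 and 61.8 CPM and its siControl.2 libraries at 104.9 and 77.0 CPM. Under siFOXA1.1 it read 13.3 and 10.3 CPM, and under siFOXA1.2 75.9 and 78.1 CPM. No siFOXA1.1 library overlapped another group, and the log2 change was -2.53 ± 0.23 (SE, adjusted p = 1.94e-07), at -2.46 and -2.55 within the batches. In SCaBER the controls were at 174, 147, 147 and 132 CPM, the siFOXA1.1 libraries at 45.8 and 49.7 CPM and the siFOXA1.2 libraries at 139 and 141 CPM. The SCaBER change was -1.62 ± 0.20 (SE, adjusted p = 0.000217), at -1.74 and -1.48 within the batches.

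E2F1, an activator whose promoter above carries the E2F motif at 2 places, fell to 27.9% of the control mean in RT112 and 40.0% in SCaBER. The RT112 controls read 62.9 and 69.0 CPM for siControl.1 and 39.8 and 46.3 CPM for siControl.2. The siFOXA1.1 libraries read 18.3 and 12.1 CPM and the siFOXA1.2 libraries 46.2 and 45.6 CPM. E2F1 was the regulator in which the control siRNAs stood furthest apart in RT112, and siFOXA1.2 lay with siControl.2. The change under siFOXA1.1 was -1.68 ± 0.24 (SE, adjusted p = 3.66e-05), at -1.33 and -2.04 within the batches. In SCaBER the controls were at 116, 84.9, 67.7 and 83.3 CPM, siFOXA1.1 at 40.3 and 30.1 CPM and siFOXA1.2 at 82.4 and 79.1 CPM. The SCaBER change was -1.27 ± 0.25 (SE, adjusted p = 0.00544), at -1.07 and -1.47 within the batches.

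E2F3 and E2F2, the other activators, did not pass the test in either line. Their promoters also held the motif, for E2F3 in the window printed above and not in that of its start site 1735 bases downstream. The counts per gene do not tell these E2F3 start sites apart. E2F3 in RT112 ranged from 59.8 to 90.5 CPM over the controls and read 66.6 and 44.0 CPM under siFOXA1.1, a log2 change of -0.40 with a 95% interval of -0.80 to 0.01 (adjusted p = 0.129). It was lower with an adjusted p of 0.0493 when library totals alone set the scale, at 0.0326 and 0.0366 in limma on the TPM values, and at 0.0275 without RT112 siFOXA1.1 replicate 1, but was at -0.16 (adjusted p = 0.643) without replicate 2. Library totals moved the median of all genes by -0.14 and the TPM scale by -0.29 (offset 1) or -0.35 (offset 0.1), so part of the E2F3 value on those scales, -0.53, -0.71 and -0.73, was shared by genes at large. In SCaBER E2F3 read 84.3 and 92.0 CPM under siFOXA1.1, above the control range of 48.6 to 71.7 CPM, at a log2 change of 0.53 ± 0.22 (SE, adjusted p = 0.163). E2F2 was low, with 8 to 136 counts in the control libraries of the lines. Its changes were -0.53 (95% interval -1.53 to 0.47) in RT112 and -0.19 (-1.90 to 1.52) in SCaBER, intervals that span a rise and a fall. In RT112 it passed without siFOXA1.1 replicate 1, at -1.61 (adjusted p = 0.0428), and turned to 0.07 without replicate 2.

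E2F7, an atypical E2F that binds without a DP partner and represses E2F genes, fell in RT112 and did not pass in SCaBER. Its RT112 siControl.1 libraries read 12.9 and 24.9 CPM and its siControl.2 libraries 16.2 and 30.3 CPM, so replicate 2 was the higher in each pair. Under siFOXA1.1 both libraries held 26 counts, or 3.81 and 3.83 CPM, below every control, and siFOXA1.2 read 17.6 and 26.1 CPM. The log2 change was -2.32 ± 0.44 (SE, adjusted p = 0.000528), at -1.75 and -2.60 within the batches. In SCaBER the controls were at 32.8, 26.3, 19.3 and 29.6 CPM, siFOXA1.1 at 32.2 and 25.5 CPM and siFOXA1.2 at 49.4 and 28.8 CPM. The groups overlapped there, and the change under siFOXA1.1 was 0.14 with a 95% interval of -0.55 to 0.82.

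TFDP1, the DP partner of the E2F factors, fell to 21.3% of the control mean in RT112 and 31.3% in SCaBER. The RT112 controls were at 93.0, 109.6, 118 and 118 CPM, siFOXA1.1 at 13.9 and 32.7 CPM and siFOXA1.2 at 112 and 106 CPM. The siFOXA1.1 libraries differed from each other but both lay below all others, with a log2 change of -2.09 ± 0.26 (SE, adjusted p = 7.05e-06) and within-batch values of -2.79 and -1.62. In SCaBER the controls read 70.9, 81.4, 84.9 and 105 CPM, siFOXA1.1 33.9 and 19.7 CPM and siFOXA1.2 85.3 and 103 CPM. The change was -1.63 ± 0.28 (SE, adjusted p = 0.00191), at -1.13 and -2.21 within the batches.

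Of the pocket protein genes, RBL1 passed in RT112 and RB1 in neither line. RBL1, which encodes p107 and has 2 E2F motifs side by side in the promoter above, read 45.5, 34.7, 36.7 and 34.5 CPM in the RT112 controls. Under siFOXA1.1 it read 14.4 and 13.8 CPM, below every control, and under siFOXA1.2 48.7 and 56.8 CPM, above every control. The siFOXA1.1 change was -1.29 ± 0.25 (SE, adjusted p = 0.000603), at -1.39 and -1.14 within the batches, while that of siFOXA1.2 was 0.50 ± 0.22 and did not pass (adjusted p = 0.367). In SCaBER RBL1 read 65.1, 54.6, 44.9 and 62.3 CPM in the controls, 38.1 and 18.1 CPM under siFOXA1.1 and 56.5 and 62.7 CPM under siFOXA1.2. The siFOXA1.1 libraries lay below the controls but differed from each other, and the change of -0.97 ± 0.32 (SE) did not pass (adjusted p = 0.0710). With the replicate block it was -1.01 and passed (adjusted p = 0.0445), as it did in DESeq2 (adjusted p = 0.0336), without the filter (adjusted p = 0.0166) and without SCaBER siFOXA1.1 replicate 1, where it was -1.65 (adjusted p = 0.00392). Without SCaBER siFOXA1.1 replicate 2 it was -0.50 (adjusted p = 0.373), and within the batches it was -0.44 and -1.67, so its size rested on which of the siFOXA1.1 libraries was kept. RB1 read 28.2 to 46.8 CPM in the RT112 controls and 26.2 and 36.2 CPM under siFOXA1.1, with a change of 0.03 and a 95% interval of -0.52 to 0.58. In SCaBER its change was 0.20 with an interval of -0.50 to 0.90, and its libraries overlapped in both lines.

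LIN9, the MuvB subunit, had few reads, with 19 to 64 counts in the RT112 controls and 10 and 5 counts under siFOXA1.1. In CPM the RT112 controls were at 5.82 ± 2.62 (SD, n = 4) and siFOXA1.1 at 1.101 ± 0.515 (SD, n = 2), and the ranges did not overlap. The log2 change was -2.24 ± 0.88 (SE), the least precise of the set, and missed the threshold (adjusted p = 0.0600). It passed with library totals alone (adjusted p = 0.0471), in DESeq2 (adjusted p = 0.0169), in limma at both offsets (adjusted p = 0.0245 and 0.0195) and without RT112 siControl.2 replicate 1 (adjusted p = 0.0435). Without any other single RT112 library it did not pass, with values from -2.78 to -1.77 and an adjusted p of up to 0.188. On the scales of library totals and of TPM the median of all genes in RT112 was lower too, as given for E2F3 above. In SCaBER LIN9 went from 8.20 ± 2.30 CPM (SD, n = 4) to 3.88 ± 1.47 (SD, n = 2), a change of -1.01 with a 95% interval of -2.33 to 0.31.

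**Figure D3:**
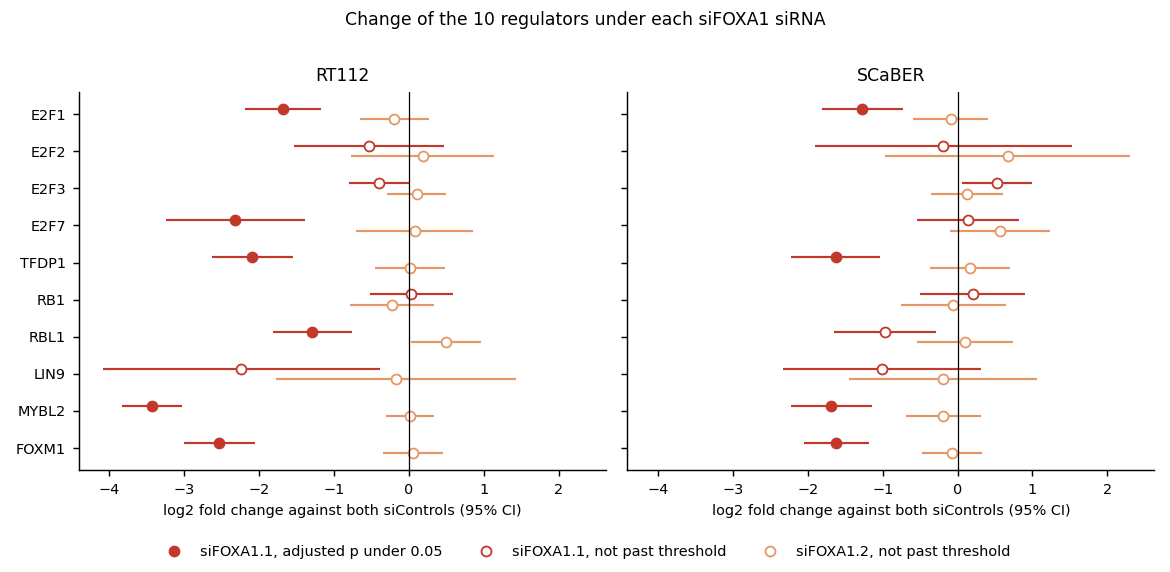
Log2 fold change of each regulator against both control siRNAs, by line and by siFOXA1 siRNA, with bars for the 95% confidence interval. Filled points passed an adjusted p of 0.05, which siFOXA1.1 gave for 6 genes in RT112 and 4 in SCaBER, while the siFOXA1.2 points are all unfilled and lie between -0.22 and 0.67.

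Under siFOXA1.2 no regulator passed the test in either line. Both libraries lay above every control for RBL1 in RT112 and for E2F2 in SCaBER. E2F2 there read 6.94 and 6.81 CPM, against 1.25 to 5.84 CPM in the controls. In RT112 the changes ran from -0.22 (RB1) to 0.50 (RBL1), and in SCaBER from -0.20 (LIN9) to 0.67 (E2F2). MYBL2 was at 0.01 with a 95% interval of -0.31 to 0.33 in RT112 and at -0.19 with an interval of -0.69 to 0.31 in SCaBER, so a fall of the size seen with siFOXA1.1 lies outside both intervals. FOXM1 was at 0.06 (-0.34 to 0.46) and -0.07 (-0.47 to 0.32). For E2F2 and LIN9 the intervals were wide, reaching -1.77 in RT112 LIN9 and 2.31 in SCaBER E2F2. By edgeR 0 of 10 passed in RT112, against 2.04% of genes, with 1 (RBL1) at an unadjusted p under 0.05. In SCaBER 0 of 10 passed, against 0.0420% of genes, with 0 at an unadjusted p under 0.05. DESeq2 and limma on log2 TPM also called 0 in both lines. In the same RT112 libraries 2 of 7 luminal markers fell and 2 of 7 basal markers rose, with 6 luminal and 3 basal markers at an unadjusted p under 0.05 and 4 and 2 called by DESeq2. In SCaBER 0 of either list passed by edgeR or DESeq2, with 2 luminal and 3 basal markers at an unadjusted p under 0.05.

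The siFOXA1 siRNAs were then set against each other directly, within the same fit of 8 libraries for each line. The difference leaves out the controls, which still bear on the filter, the scaling and the spread. In RT112 siFOXA1.1 was lower than siFOXA1.2 for the 6 regulators called above, 6 of 10 against 28.1% of genes, with MYBL2 at -3.44 ± 0.20, FOXM1 at -2.59 ± 0.25, E2F7 at -2.40 ± 0.48, TFDP1 at -2.10 ± 0.28, RBL1 at -1.79 ± 0.28 and E2F1 at -1.48 ± 0.27 (log2 ± SE, adjusted p at most 0.00100). In SCaBER 4 of 10 were lower, against 4.85% of genes, with TFDP1 at -1.80 ± 0.30 (adjusted p = 0.00339), FOXM1 at -1.54 ± 0.22 (adjusted p = 0.00118), MYBL2 at -1.50 ± 0.28 (adjusted p = 0.00600) and E2F1 at -1.18 ± 0.28 (adjusted p = 0.0241). The SCaBER count fell to 2 (FOXM1 and TFDP1) without siFOXA1.2 replicate 1 and to 1 (FOXM1) without siFOXA1.2 replicate 2, each of which leaves 1 library in that arm.

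Between the control siRNAs no regulator passed in either line by edgeR, DESeq2 or limma. In RT112 this was 0 of 10, against 2.36% of genes, with 2 at an unadjusted p under 0.05. These were E2F1, at 0.68 ± 0.25 (siControl.1 minus siControl.2, log2 ± SE, adjusted p = 0.211), and FOXM1, at -0.50 ± 0.22 (adjusted p = 0.323). In SCaBER it was 0 of 10, against 0.0672% of genes, with 0 at an unadjusted p under 0.05. Against siControl.1 alone and against siControl.2 alone, siFOXA1.1 gave the main count of 6 in RT112 and 4 in SCaBER. With the siFOXA1 libraries pooled, where each group of 4 holds a pair from each siRNA, 0 of 10 passed in either line by edgeR, DESeq2 or limma. The share of genes called was then 0.108% in RT112 and 0.00840% in SCaBER. MYBL2 was at -0.86 ± 0.67 in RT112 and -0.75 ± 0.34 in SCaBER (log2 ± SE), and in SCaBER it was the 1 regulator at an unadjusted p under 0.05, while in RT112 there were 0. Without the filter MYBL2 passed in SCaBER (adjusted p = 0.0281).

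Whether siFOXA1.1 moved the regulators differently in the lines was tested as an interaction over all 16 libraries. E2F7, which fell in RT112 and did not pass in SCaBER, and MYBL2, which fell in both and more in RT112, differed between the lines, 2 of 10 against 3.14% of 13701 genes. E2F7 differed by -2.47 ± 0.55 (RT112 minus SCaBER, log2 ± SE, adjusted p = 0.0191) and MYBL2 by -1.75 ± 0.33 (adjusted p = 0.00635). FOXM1 (-0.93, adjusted p = 0.0679) and E2F3 (-0.94, adjusted p = 0.0978) did not pass. FOXM1 did so in DESeq2 (adjusted p = 0.0299), and with limma on log2 TPM 4 regulators passed, FOXM1 and E2F3 included. On the TPM scale the median of all genes was -0.23 (offset 1) and -0.29 (offset 0.1), beside -0.03 in the main fit. E2F1, TFDP1 and RBL1, at -0.42, -0.47 and -0.33, had 95% intervals of -1.11 to 0.27, -1.30 to 0.36 and -1.16 to 0.51. The result rested on both RT112 siFOXA1.1 libraries: without replicate 1 E2F7 no longer passed (adjusted p = 0.0737), and without replicate 2 neither E2F7 (adjusted p = 0.0713) nor MYBL2 (adjusted p = 0.0530) did.

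The rest of the pathway was followed through 4 further lists. They were chosen with earlier results of these data known, so their counts beside the share of all genes are descriptions. Of the other E2F, RB and MuvB subunits, 10 of 11 were tested in RT112, where under siFOXA1.1 E2F8 (log2 change -2.78 ± 0.45, SE), an atypical repressor like E2F7, and TFDP2 (-0.78 ± 0.27), another DP protein, fell and E2F6 (0.83 ± 0.26), a repressor that does not bind RB, rose. The repressor E2F4 was at 0.26 ± 0.24 and the pocket protein gene RBL2 at -0.24 ± 0.20, and neither passed. These 3 of 10 were close to the 32.6% of all genes called in that comparison. In SCaBER 0 of 9 tested passed by edgeR, with 0 at an unadjusted p under 0.05 and 0 by DESeq2. Of the cyclins, CDKs and CDK inhibitors upstream of RB, 8 of 12 fell, against 17.0% of genes called lower, and 2 rose in RT112. Cyclin A2 (CCNA2, -4.04 ± 0.41) and cyclin E1 (CCNE1, -4.04 ± 0.54), both partners of CDK2, fell most, with the inhibitor CDKN2C (-2.88 ± 0.51), and CDK6 rose (1.02 ± 0.16). In SCaBER 3 of 14 fell, against 4.79% of genes, with cyclin E2 (CCNE2, -3.07 ± 0.45) and CCNA2 (-1.61 ± 0.30) first, and CDKN1A, which encodes the CDK inhibitor p21, rose (2.17 ± 0.22). CDKN1A was the other gene that rose in RT112, at 0.51 ± 0.19 (adjusted p = 0.0457). E2F4, RBL2 and, in RT112, CDK6 and CDKN1A were chosen for naming after their values were seen.

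Target genes of these regulators also fell under siFOXA1.1. Their lists, too, were chosen with earlier results of these data known. Of 20 E2F target genes of S phase, 18 fell in RT112, against 17.0% of genes called lower, and 15 in SCaBER, against 4.79%, and 0 rose in either line. TYMS, RRM2 and GINS2, which serve nucleotide supply and replication, were the 3 largest in both lines, at -3.49, -3.27 and -2.16 in RT112 and -2.30, -2.31 and -1.95 in SCaBER. Of 20 B-MYB and FOXM1 target genes of mitosis, 19 fell in RT112 and 17 in SCaBER, against the same shares, and 0 rose. CDC25C, the phosphatase that activates CDK1, was at -3.39 ± 0.43 and BUB1, a spindle checkpoint kinase, at -3.21 ± 0.36 in RT112, and CDKN3 at -3.11 ± 0.39 there and -1.97 ± 0.30 in SCaBER. SKP2 (-1.88 ± 0.29) and KIF20A (-1.78 ± 0.44) followed it in SCaBER. The median change was -1.39 (S phase) and -2.52 (mitosis) in RT112, and -1.07 and -1.38 in SCaBER, beside the medians over all genes given above. Under siFOXA1.2 the list medians lay between -0.15 and -0.06 in RT112 and between -0.16 and 0.18 in SCaBER. There edgeR called 0 genes of the 4 lists in either line. At an unadjusted p under 0.05 there were in RT112 1 of the subunits, 0 of the cyclin and CDK list, 2 of the S phase and 3 of the mitosis genes, and in SCaBER 1 of the cyclin and CDK list and 0 of the other lists. DESeq2 called 0 in RT112 and 1 in SCaBER, from the cyclin and CDK list.

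**Figure D4:**
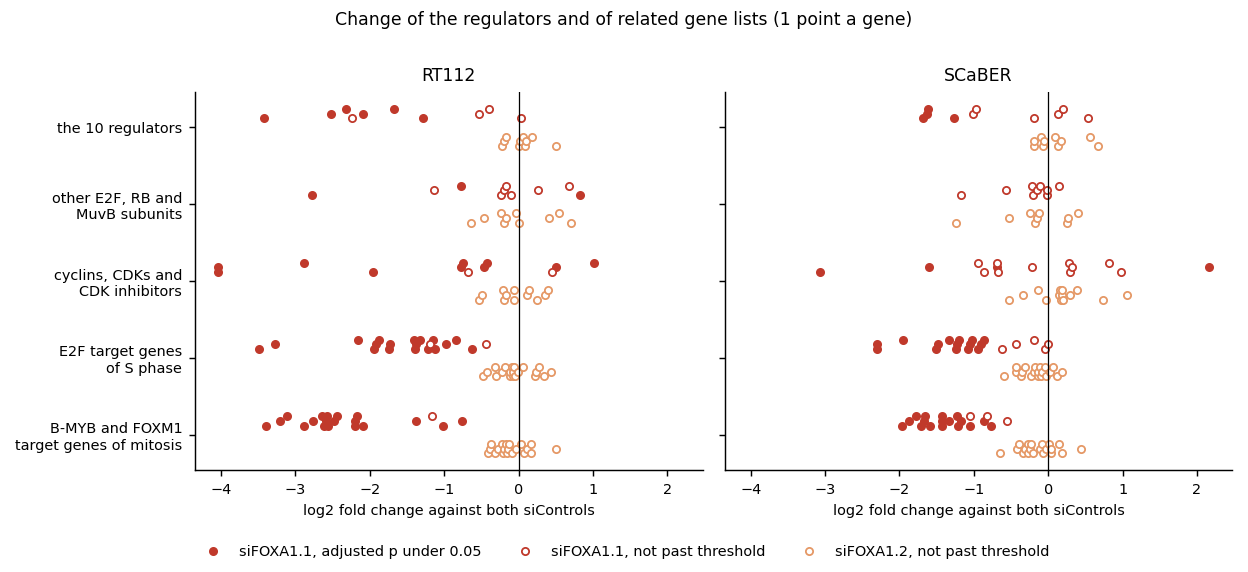
Log2 fold change against both control siRNAs for the regulators and for 4 related gene lists, with 1 point a gene, filled where the adjusted p was under 0.05. Under siFOXA1.1 the S phase and mitosis genes lie left of 0, with medians of -1.39 and -2.52 in RT112 and -1.07 and -1.38 in SCaBER, and under siFOXA1.2 no point is filled.

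Regulators with and without an exact match to the E2F motif were both among those that fell. Among the 5 regulators whose windows held it, E2F1, RBL1 and TFDP1 passed under siFOXA1.1 in RT112 and E2F2 and E2F3 did not. Among the 3 without an exact match, MYBL2 and E2F7 passed and LIN9 did not. FOXM1, which also fell, and RB1 had no window to search. Whether the motif has a part in the fall was not tested.

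Across the 16 libraries, with the mean of each line removed from log2(CPM + 1), MYBL2 and FOXM1 varied together (Pearson r = 0.96), as did MYBL2 and E2F1 (r = 0.94) and FOXM1 and TFDP1 (r = 0.91). These are descriptions, since the libraries share siRNAs and the 4 siFOXA1.1 libraries set much of the spread. E2F3 had r between -0.03 and 0.50 with the other 9, and RB1 had r between -0.75 (E2F2) and 0.11 (LIN9). Of genes outside the set, FOXM1 was most like CALM3 (r = 0.99), CDCA3 (r = 0.98) and TUBA1B (r = 0.98), and TFDP1 most like HJURP (r = 0.99), SPAG5 (r = 0.98) and CENPF (r = 0.96). For E2F1 the nearest were DYNLRB1 (r = 0.97), PPDPF (r = 0.95) and NSA2 (r = 0.95), and for RB1 PSMB3 (r = 0.88), BCAR3 (r = 0.86) and SOCS3 (r = 0.84). RBL1 was nearest to TCEA1 (r = 0.96), PTDSS1 (r = 0.95) and FIBP (r = 0.95), and LIN9 to TMEM256 (r = 0.91), STK26 (r = 0.90) and PRC1 (r = 0.90). E2F2 was nearest to BRICD5 (r = 0.88), ZNF767P (r = 0.88) and NSD1 (r = 0.86), and E2F3 to ZNF438 (r = 0.86), MICALL1 (r = 0.85) and AZI2 (r = 0.84).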

How the data were processed

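RNA was isolated by the study with the RNeasy kit and sequenced with the Lexogen 3' mRNA-Seq kit (FWD), in 16 libraries of 2 cell lines. The authors trimmed reads with TrimGalore 0.6.2 (quality 20, length 10), aligned them with STAR 2.6.1a and deposited raw counts per gene of GENCODE 29. The authors also deposited TPM values, which scale these counts by gene length and to a fixed total. The processing settings name hg38, the methods text hg19, and no coordinate of the reads was used here. The labels give the siRNA as 10 nM, while the methods give it as a mass.

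CPM are counts divided by the library total over all 58721 genes listed. Changes were tested on the counts with edgeR 4.0.16 in R 4.3.3 (quasi-likelihood F test, TMM scaling, Benjamini-Hochberg adjustment over all genes tested, threshold 0.05), in fits of 8 libraries for each line, the 8 siControl libraries, or all 16. Log2 changes come from these fits. Each SE is the absolute log2 change divided by the square root of its F value, and the 95% intervals are built from it. Within-batch values are TMM-scaled log2 CPM of a siFOXA1 library minus the control mean of its batch, with a prior count of 2. Genes were filtered with filterByExpr on siRNA target within line. That grouping was chosen after the files were seen, and a filter on siRNA groups was added as an alternative. The members and gene lists were chosen with earlier results of these data known. The rule named all members, the 3 largest passing genes of each list under siFOXA1.1 in each line, and the 3 genes of highest r with each member. The genes nearest to MYBL2 and E2F7 and 1 basal marker that it names are not reported here, and genes named outside it are marked as such. The detection floor was 3 counts, and intervals cover the spread between libraries as fitted.

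Replicate numbers mark experiment batch in the labels, which pairs the libraries across siRNAs, so a fit with the replicate block was run. Deviations of same-numbered libraries correlated at -0.0184 to 0.0137 in RT112 and 0.0187 to 0.200 in SCaBER (6 pairs each). Replicates of each siRNA differed beyond sampling noise, with chi-square per degree of freedom of 8.35 to 34.0. The other alternatives were RLE scaling, library totals alone, no filter beyond 1 count, DESeq2 1.42.0, limma 3.58.1 on log2(TPM + 1) and log2(TPM + 0.1), either control siRNA alone, leaving out each library, and, added after seeing the data, leaving out mitochondrial genes. The code was tested on simulated data. Promoters come from RefSeq (GRCh38.p14) windows with a start site within 2000 bases of the gene start, which 8 of the 10 members had.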

Additional observations from a re-analysis of the deposited data

Results flagged for a closer look

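E2F2 in SCaBER was at 1.25 CPM in siControl.1 replicate 2, far below the other 3 siControl libraries of that line, and RB1 in RT112 was at 46.8 CPM in siControl.2 replicate 2, far above the other 3. These were 2 of 40 groups examined for 1 library far from the others in CPM (each of the 10 genes in each line, over the 4 siControl or the 4 siFOXA1 libraries). Chance flags about 1 in 20 groups of like libraries. The siFOXA1 groups pool 2 siRNAs that often stood apart, so this rate may not hold for them. The change of E2F7 under siFOXA1.1 differed between the lines by -2.47 (RT112 minus SCaBER, log2), and that of MYBL2 by -1.75, each by the interaction test over all 16 libraries.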

How the results depend on the processing

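Of 930 log2 changes of single regulators recomputed under an alternative, 852 kept their direction and side of the threshold, 16 newly passed, 10 no longer passed (all in the comparison of the lines) and 52 changed sign, and none of those that changed sign had passed the test. The cause of these shifts was not tested. The replicate block took the count under siFOXA1.1 in SCaBER from 4 to 5, with RBL1 at -1.01, and left the counts of the other comparisons as they were. Leaving out 1 library gave counts of 1 to 5 for siFOXA1.1 against siFOXA1.2 in SCaBER (main count 4), 2 to 6 between the lines (5) and 0 to 2 for the difference in change between the lines (2). Where this left an arm with 1 library, it was assumed to vary like the other groups. The difference in change between the lines counted 4 in limma at either offset. The pooled comparison in SCaBER counted 1 without the filter. Changes of sign under siFOXA1.1 in RT112 were, for RB1, -0.11 with library totals, -0.26 and -0.29 in limma (offsets 1 and 0.1), -0.0907 against siControl.2 alone and -0.26 to 0.26 leaving out a library. E2F2 ranged from -1.61 to 0.0699 in the same way. Under siFOXA1.2 in RT112, MYBL2 was at -0.00840 with library totals, -0.0135 and -0.0136 in limma and -0.0452 against siControl.1 alone, and TFDP1 at -0.000717, -0.00626, -0.00620 and, against siControl.2 alone, -0.0609. Against siControl.2 alone E2F1 was at 0.14, E2F3 at -0.0343, E2F7 at -0.0346, FOXM1 at -0.19 and LIN9 at 0.0782. Leaving out a library there gave -0.00391 to 0.23 for E2F3, -0.23 to 0.36 for E2F7, -0.0391 to 0.0592 for MYBL2, -0.0473 to 0.19 for FOXM1, -0.0452 to 0.0808 for TFDP1 and -0.46 to 0.30 for LIN9. In SCaBER E2F2 under siFOXA1.1 was at 0.22 against siControl.1 alone, and leaving out a library gave -0.67 to 0.51 for E2F2, -0.0771 to 0.34 for E2F7 and -0.29 to 0.57 for RB1. Under siFOXA1.2 in SCaBER, against siControl.2 alone, E2F1 was at 0.11, FOXM1 at 0.0190, RB1 at 0.0953 and LIN9 at 0.12, and leaving out a library gave -0.20 to 0.0421 for E2F1, -0.00502 to 0.29 for E2F3, -0.24 to 0.19 for RB1, -0.0108 to 0.21 for RBL1 and -0.43 to 0.00475 for LIN9. Between the lines, limma put E2F3 at -0.0229, TFDP1 at -0.0188 and RB1 at -0.18 with offset 1, and at -0.0239, -0.0190 and -0.19 with offset 0.1. Depth limits LIN9 and E2F2 most, with 5 and 8 counts in their lowest libraries.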
